A study of Rattus norvegicus with 18 samples.

Results

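Collagens are the fibre-, network- and membrane-forming proteins of the extracellular matrix, and in the dorsal root ganglion (DRG) they lie in the capsule, in the endoneurium between nerve fibres, and in the basal laminae around Schwann cells, satellite glia and blood vessels. The collagen genes were taken here as every row of the series' mRNA count table whose RefSeq symbol is Col, a number, a and a number. They numbered 21 of the 15075 identifiers in the table, and the identifiers were given symbols by RefSeq accession (14193 of 15075 matched). At an unadjusted p under 0.05, 8 of the 19 collagens tested were lower in the bPYX+GFP than in the naïve group and 0 were higher, while 3.25% of all genes were called in that comparison. The count is 7 of 18 without Col9a1, whose direction the filter on low counts fixed. The set was chosen with earlier results of these data known, so the count is not an independent test.

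The study asked how gene expression in cervical DRG is altered by a supraspinal injury and by neurotrophin-3 (NT3), a growth factor for proprioceptive afferents. Adult lister hooded rats gave 18 poly(A) libraries of C6-C8 DRG, 6 in each of 3 groups, with the ganglia of the treated side pooled within a rat and not between rats. The naïve rats (rats 41, 42, 43, 44, 45 and 49) had no operation and no vector injection. The bPYX+GFP rats (rats 5, 15, 18, 21, 52 and 57) had bilateral pyramidotomy, a transection of the left and right corticospinal tract at the level of the medulla, and a day later an injection of AAV1-CMV-GFP, a viral vector for green fluorescent protein, into the forelimb flexors of one side. The bPYX+NT3 rats (rats 2, 11, 17, 23, 39 and 40) had the same injury and an AAV1-CMV-NT3 vector carrying the human gene. Both injured groups thus share surgery and a viral vector driven by the broadly active CMV promoter, and the injury cannot be told apart from these against naïve rats. The paper describes behavioural tests, neurophysiology and nerve tracing for the injured rats, and its Sema4C staining also compared traced neurons of naïve rats. Whether the naïve rats sequenced here had any of these is not stated. The ganglia were taken 10 weeks after injury.

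A collagen molecule is a triple helix of alpha chains, each from its own gene. Prolines and lysines of the chains are hydroxylated in the endoplasmic reticulum, the helix is held by the chaperone HSP47 (Serpinh1), and outside the cell propeptides are cut off and lysyl oxidases cross-link the molecules. Fibrillar collagens (types I, II, III, V and XI) build the banded fibrils, type IV chains form the network of basement membranes with types XV and XVIII beside it, and others decorate fibrils (types IX, XIV and XVI), form beaded filaments (type VI) or span the cell membrane (types XIII and XXIII). In peripheral nerve and ganglia, type IV collagen marks the basal lamina that Schwann cells and satellite glia need for their contact with axons and neuron cell bodies.

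By type, 7 of the 21 rows were fibrillar (Col1a1, Col2a1, Col3a1, Col5a1, Col5a3, Col11a1 and Col11a2), 4 belonged to basement membranes (Col4a1, Col4a4, Col15a1 and Col18a1) and 10 were of other types (Col6a2, Col7a1, Col8a1, Col9a1, Col9a2, Col13a1, Col14a1, Col16a1, Col23a1 and Col26a1). The reference names 44 collagens, so 23 had no row under their symbol and were not analysed here. The 882 identifiers that matched no symbol may hold rows of some of these. One of the 23 is Col1a2, the partner chain of Col1a1 in type I collagen, which was listed at 0 reads in each of the 18 rats' own count files. Why it had 0 reads was not tested, and this value does not show that the gene was unexpressed. A gene was tested where 6 or more of the 12 rats of a comparison had over 10 reads, which held for 19 collagens in each comparison with naïve rats and for 18 between the injured groups. Col7a1, the chain of anchoring fibrils (between 0 and 20 reads per rat), and Col26a1 (between 1 and 10 reads) were never tested. Col9a1 had between 1 and 32 reads and exceeded 10 in 5 naïve, 1 bPYX+GFP and 4 bPYX+NT3 rats, so that it entered the comparison of bPYX+GFP with naïve rats nearly through the naïve rats alone and had to be lower there; it was not tested between the injured groups.

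The sequence just before the transcription start is shown for the 5 called collagens for which the RefSeq promoter table (build GRCr8) has an entry, since they are members that moved in a comparison below. Entries were matched by symbol, and the counts themselves were made on another build, Rnor_6.0. The 250 bases before the start are given 5′ to 3′ on the gene's strand. Capitals mark 3 motifs, each searched on both strands. The first is the core promoter element TATAAA, called the TATA motif. The second is CCAAT, read by the factor NF-Y. The third is GGGCGG, a GC box read by Sp1.
Col15a1, chr5:66297296-66297545, + strand: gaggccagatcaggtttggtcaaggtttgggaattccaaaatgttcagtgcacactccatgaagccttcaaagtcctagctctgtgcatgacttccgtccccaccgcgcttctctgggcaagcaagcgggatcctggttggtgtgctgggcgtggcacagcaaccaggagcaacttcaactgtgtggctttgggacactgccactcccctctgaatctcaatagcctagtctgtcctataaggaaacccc
Col9a1, chr9:34081114-34081363, + strand: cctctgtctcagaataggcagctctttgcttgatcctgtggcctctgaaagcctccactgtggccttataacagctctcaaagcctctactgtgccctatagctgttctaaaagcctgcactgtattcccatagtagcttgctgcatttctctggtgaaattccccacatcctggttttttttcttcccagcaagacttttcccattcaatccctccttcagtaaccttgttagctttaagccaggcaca
Col4a1, chr16:84885347-84885596, + strand: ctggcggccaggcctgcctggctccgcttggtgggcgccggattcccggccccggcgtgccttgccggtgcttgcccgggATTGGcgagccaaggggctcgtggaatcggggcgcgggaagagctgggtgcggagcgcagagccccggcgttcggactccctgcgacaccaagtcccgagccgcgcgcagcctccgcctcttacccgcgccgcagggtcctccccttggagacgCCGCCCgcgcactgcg
Col11a1, chr2:204508886-204509135, + strand: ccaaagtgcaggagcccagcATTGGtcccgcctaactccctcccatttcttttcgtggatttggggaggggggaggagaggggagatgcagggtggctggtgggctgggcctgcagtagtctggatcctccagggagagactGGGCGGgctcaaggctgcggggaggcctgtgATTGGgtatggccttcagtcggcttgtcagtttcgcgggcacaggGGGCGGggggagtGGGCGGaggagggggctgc
Col16a1, chr5:147672846-147673095, + strand: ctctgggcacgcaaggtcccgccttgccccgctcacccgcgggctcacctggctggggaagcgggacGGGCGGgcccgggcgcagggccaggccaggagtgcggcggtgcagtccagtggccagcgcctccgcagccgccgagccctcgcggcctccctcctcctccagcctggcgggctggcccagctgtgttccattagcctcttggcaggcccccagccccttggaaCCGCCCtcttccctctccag
Of the 21 collagens 16 had an entry, and Col1a1, Col2a1, Col3a1, Col6a2 and Col14a1 did not. The GC box was found in 10 of the 16 and in 30.5% of all 33469 promoters of the same length, the second motif in 3 of the 16 (Col4a1, Col5a3 and Col11a1) and in 34.0% of all, and the TATA motif in 1 of the 16 (Col13a1) and in 12.9% of all. Motif matches on either strand were counted, could overlap each other and are a description of these letters alone. Col15a1, Col9a1, Col4a1 and Col11a1 were called lower in bPYX+GFP than in naïve rats. For Col9a1 the filter on low counts fixed that direction, as described above. The windows of Col15a1 and Col9a1 held none of the 3 motifs, and those of Col4a1 and Col11a1 held the second and the third. These 4 windows thus had no searched motif in common. Median GC content was 64.2% over the collagen promoters and 51.2% over all.

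Each rat had between 10057787 and 16002410 read-pairs on genes. Values below are normalized counts, that is read-pairs scaled by TMM (edgeR's correction for library size and composition) to a common library size, and they are not corrected for gene length, so levels are compared between rats and not between genes. Rat 57 of the bPYX+GFP group and rat 11 of the bPYX+NT3 group had the lowest shares of read-pairs on no feature (31.7% and 30.8%, against 32.5% to 34.6% in the other 16 rats), and results that rest on them are given with and without both. The groups follow the heading of the count table, whose sample numbers match the sample descriptions and stand beside rat numbers. The titles recorded for the files of single rats name another group in 17 of 18 rats, although each file was identical to the table column of its rat number. The heading groups gave the log2 fold changes that the paper printed for 2 genes. For Loxl4 these were -0.51 (bPYX+GFP against naïve) and 0.72 (bPYX+NT3 against bPYX+GFP). For Adipoq they were -2.11 (bPYX+NT3 against bPYX+GFP) and -1.85 (bPYX+NT3 against naïve). Neuron markers such as Nefl and Tubb3 and Schwann cell markers such as Pmp22 were high in each rat (summed over each list at least 134124 and 41589 normalized counts). Of 10 neuron markers tested 0 were called in the 3 comparisons, where between 1.73% and 6.01% of all genes were called. DRG RNA is a mixture of cells, and fewer cells of a type cannot be told apart from less RNA per cell.

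The collagen rows together took a small part of the read-pairs on genes. Their share was lowest 0.126%, median 0.161% and highest 0.179% in naïve rats, 0.111%, 0.124% and 0.140% in the bPYX+GFP group, and 0.111%, 0.142% and 0.158% in the bPYX+NT3 group. The means were 0.157 ± 0.0188%, 0.124 ± 0.0128% and 0.136 ± 0.0189% (SD, n = 6 each), and the 3 ranges overlapped. Col1a1 and Col3a1, the chains of types I and III, held 53.6 ± 2.79% of these reads in the naïve group, 51.7 ± 4.22% in the bPYX+GFP group and 48.9 ± 5.56% in the bPYX+NT3 group.

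The first comparison, of injured rats with a control vector against naïve rats, gave the most collagen calls. Of the 7 fibrillar genes 4 were lower (Col1a1, Col2a1, Col3a1 and Col11a1), of the 4 basement membrane genes 2 (Col4a1 and Col15a1) and of the 8 other genes tested 2 (Col9a1 and Col14a1). Among all 11601 genes tested, 2.52% were called lower and 0.733% higher. The median log2 fold change of the collagens was -0.18 against 0.01 over all genes, and 15 of 19 were below 0 against 43.9% of all genes. These counts and the median include Col9a1, whose direction the filter on low counts fixed. After Benjamini-Hochberg adjustment over all genes, edgeR's quasi-likelihood test called 0 of the 19 (smallest adjusted p = 0.292, Col15a1). EdgeR's likelihood ratio test and DESeq2 each had 2 collagens with an adjusted p under 0.05, Col15a1 and Col1a1. Over all 11601 genes the quasi-likelihood test had 0 such genes, the likelihood ratio test 13 and DESeq2 16. Adjusting the fit for the percentage of a rat's read-pairs on no feature gave 1 such collagen, Col15a1, among 17 such genes.

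**Figure D1:**
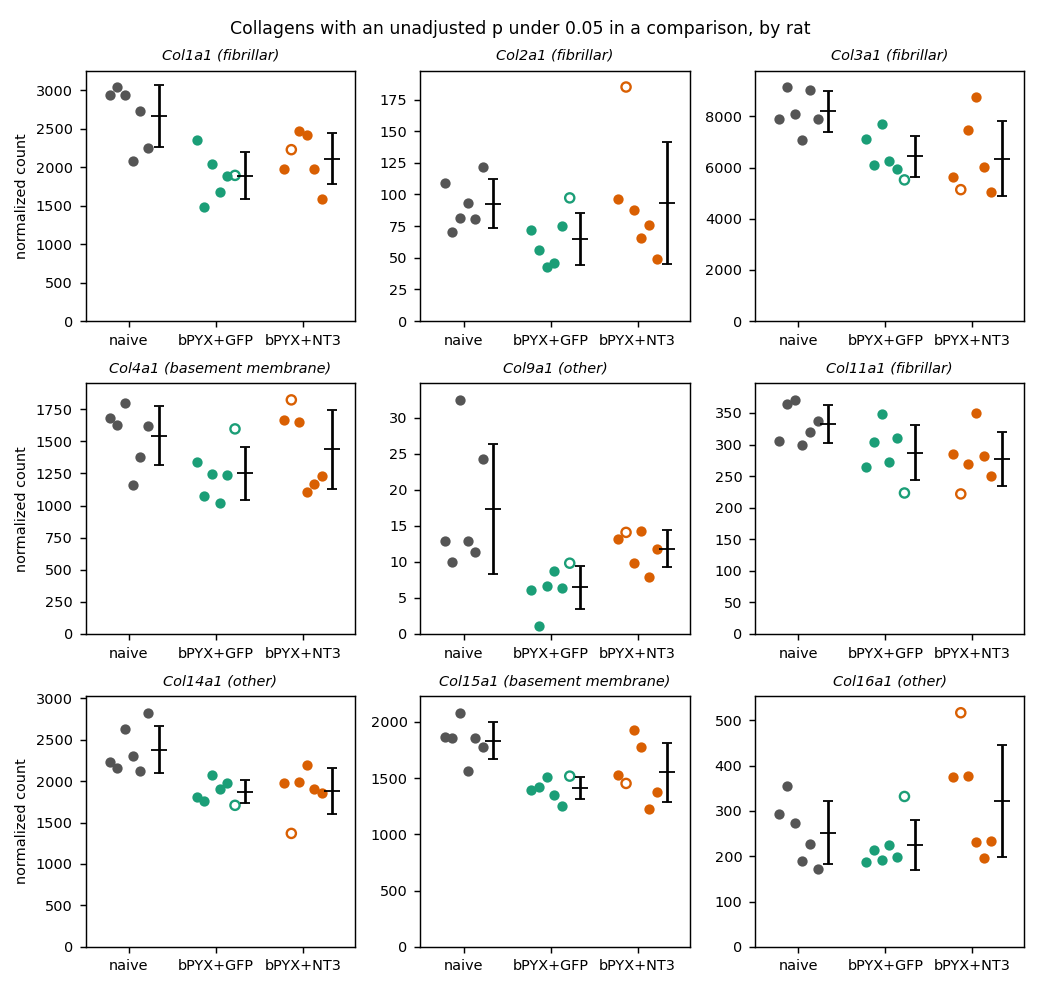
Normalized counts (vertical axis, from 0) of the 9 collagens with an unadjusted p under 0.05 in at least 1 comparison, by group (horizontal axis). Each point is a rat, open circles are rats 57 and 11, and the bars give the mean and SD of 6 rats. For Col15a1, Col14a1 and Col9a1 each bPYX+GFP rat lies below each naïve rat, which held for 0.198% of all genes, whereas the groups overlap for the other 6. The filter on low counts fixed the direction of Col9a1.

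Among the fibrillar collagens, Col1a1 (NM_053304), the main chain of type I collagen, had a lowest, median and highest normalized count of 2076, 2834 and 3041 in the naïve group, 1484, 1891 and 2357 in the bPYX+GFP group and 1582, 2102 and 2472 in the bPYX+NT3 group. Each injured rat of both groups was below the naïve median, and 5 of 6 bPYX+GFP rats were below the lowest naïve rat. Against naïve rats the bPYX+GFP group differed by -0.49 (SE 0.117, p = 0.000882, exact permutation p = 0.00866) on the log2 scale. Col3a1 (NM_032085), the chain of type III collagen of pliable tissue, ranged from 7068 to 9149 (median 8006) in the naïve group, from 5518 to 7711 (median 6180) in the bPYX+GFP group and from 5047 to 8743 (median 5832) in the bPYX+NT3 group. Here 4 of 6 rats in each injured group were below the lowest naïve rat, and rat 23 of the bPYX+NT3 group lay among the highest naïve rats. The corresponding log2 value of the bPYX+GFP group was -0.35 (SE 0.0853, p = 0.0012, exact permutation p = 0.00649).

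The other called fibrillar genes were of lower count and closer to the threshold. Col11a1 (NM_013117), a chain of the minor fibrillar type XI that sits inside fibrils, was at 299.5, 328.8 and 370.7 in the naïve group, 223.2, 288.5 and 348.2 in the bPYX+GFP group and 221.7, 275.9 and 350.4 in the bPYX+NT3 group (lowest, median and highest). Rats 57 and 11 were the lowest of their groups, and the ranges overlapped. On the log2 scale the bPYX+GFP rats differed from naïve rats by -0.22 (SE 0.0995, p = 0.0467, exact permutation p = 0.0541) and by -0.16 without rats 11 and 57, which ended the call. Col2a1 (NM_012929), the cartilage collagen, was at 70.0, 87.3 and 121.7 in the naïve group, at 42.5, 64.1 and 97.3 in the bPYX+GFP group and at 48.7, 81.6 and 184.9 in the bPYX+NT3 group. The highest value of each injured group was that of rat 57 or rat 11. For bPYX+GFP against naïve rats the value was -0.51 (SE 0.211, p = 0.0309, exact permutation p = 0.0346) on the log2 scale and -0.67 without rats 11 and 57.

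In basement membranes, Col15a1 (NM_001100535), a chain that links basement membranes to the fibrils beneath them, had the smallest p of all collagens and ranked 4 of the 11601 genes tested. It was at 1560, 1856 and 2080 in the naïve group, at 1255, 1407 and 1517 in the bPYX+GFP group and at 1229, 1491 and 1931 in the bPYX+NT3 group. The bPYX+GFP and naïve rats did not overlap, which held for 0.198% of all genes in this direction and 0.0431% in the other, while bPYX+NT3 rats 17 and 23 lay within the naïve range. On the log2 scale the bPYX+GFP group differed by -0.38 (SE 0.0705, p = 0.000102, exact permutation p = 0.00216), where the permutation p is the smallest that 6 rats against 6 allow. Col4a1 (NM_001135009), a chain of the ubiquitous type IV network, was at 1162, 1625 and 1802 in the naïve group, 1021, 1241 and 1597 in the bPYX+GFP group and 1103, 1439 and 1823 in the bPYX+NT3 group. All 6 bPYX+GFP rats were below the naïve median, with 2 below the lowest naïve rat, and their log2 value was -0.30 (SE 0.121, p = 0.0261, exact permutation p = 0.0584).

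The remaining basement membrane genes were not called. Col18a1 (NM_053489), the precursor of endostatin, was at 180.4, 239.9 and 311.0 in the naïve group, 179.4, 200.9 and 338.3 in the bPYX+GFP group and 192.9, 287.5 and 452.8 in the bPYX+NT3 group. The bPYX+GFP maximum was rat 57, with the next rat at 229.7. Against naïve rats the bPYX+GFP group differed by -0.13 (SE 0.189, exact permutation p = 0.504) on the log2 scale. Col4a4 (NM_001008332), a type IV chain best known from the kidney glomerulus, stayed below 21 normalized counts in each rat, with a log2 fold change of 0.21 (SE 0.258, exact permutation p = 0.519), the highest of the 19.

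Of the other types, Col14a1 (NM_001130548), a fibril-associated collagen that spaces fibrils, was at 2117, 2266 and 2825 in the naïve group, 1708, 1856 and 2074 in the bPYX+GFP group and 1369, 1937 and 2200 in the bPYX+NT3 group. No bPYX+GFP rat reached the naïve range, and rat 23 was the one bPYX+NT3 rat within it. The log2 fold change of the bPYX+GFP group was -0.34 (SE 0.0783, p = 0.000615, exact permutation p = 0.00216). Col9a1 (NM_001100842), a cartilage collagen on the surface of type II fibrils, was at 10.0, 13.0 and 32.5 in the naïve group, 1.084, 6.496 and 9.819 in the bPYX+GFP group and 7.875, 12.48 and 14.35 in the bPYX+NT3 group. Its log2 fold change of -1.37 (SE 0.405, p = 0.00454, exact permutation p = 0.00216) in the bPYX+GFP group was the largest in size, but rests on few reads and, through the filter, on the naïve rats. Col6a2 (NM_001100741), a chain of beaded filaments around cells, was at 181.5, 269.0 and 488.8 in naïve rats and 187.9, 278.6 and 559.7 in bPYX+GFP rats, with a log2 fold change of 0.04 (SE 0.279, exact permutation p = 0.911), and at 224.4, 331.7 and 553.9 in the bPYX+NT3 group. The fibrillar Col5a3 (NM_021760), a type V chain that is rich in peripheral nerve, was at 1223, 1583 and 2055 in naïve rats and 1119, 1270 and 2122 in bPYX+GFP rats, with a log2 fold change of -0.18 (SE 0.164, exact permutation p = 0.292) that became -0.33 without rats 11 and 57 and was then called. In the bPYX+NT3 group Col5a3 was at 1356, 1710 and 2591. The other uncalled members (Col5a1, Col8a1, Col9a2, Col11a2, Col13a1, Col16a1 and Col23a1) had log2 fold changes from -0.32 (Col8a1) to 0.08 (Col11a2).

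The remaining uncalled members are given by range. Col5a1, the common type V chain that starts fibrils, ran from 251.5 to 433.4 normalized counts in the naïve group, from 238.5 to 550.8 in the bPYX+GFP group and from 277.9 to 437.9 in the bPYX+NT3 group, with rat 57 at the top of the second. Col23a1, a transmembrane collagen, ran from 133.5 to 216.3, from 126.8 to 257.1 and from 122.1 to 219.4 in the same order of groups. For both genes the 3 ranges overlapped over most of their length. Col8a1, a short-chain network collagen of vessels, ran from 73.9 to 149.2, from 62.2 to 113.0 and from 55.9 to 125.6. Col9a2, a type IX partner chain of Col9a1, ran from 45.4 to 79.2, from 43.2 to 92.8 and from 43.3 to 103.4, with rats 57 and 11 highest in their groups. Col11a2 and Col13a1, a type XI chain and a transmembrane collagen, stayed between 15.6 and 47.0 and between 16.2 and 44.6 normalized counts over all 18 rats.

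**Figure D2:**
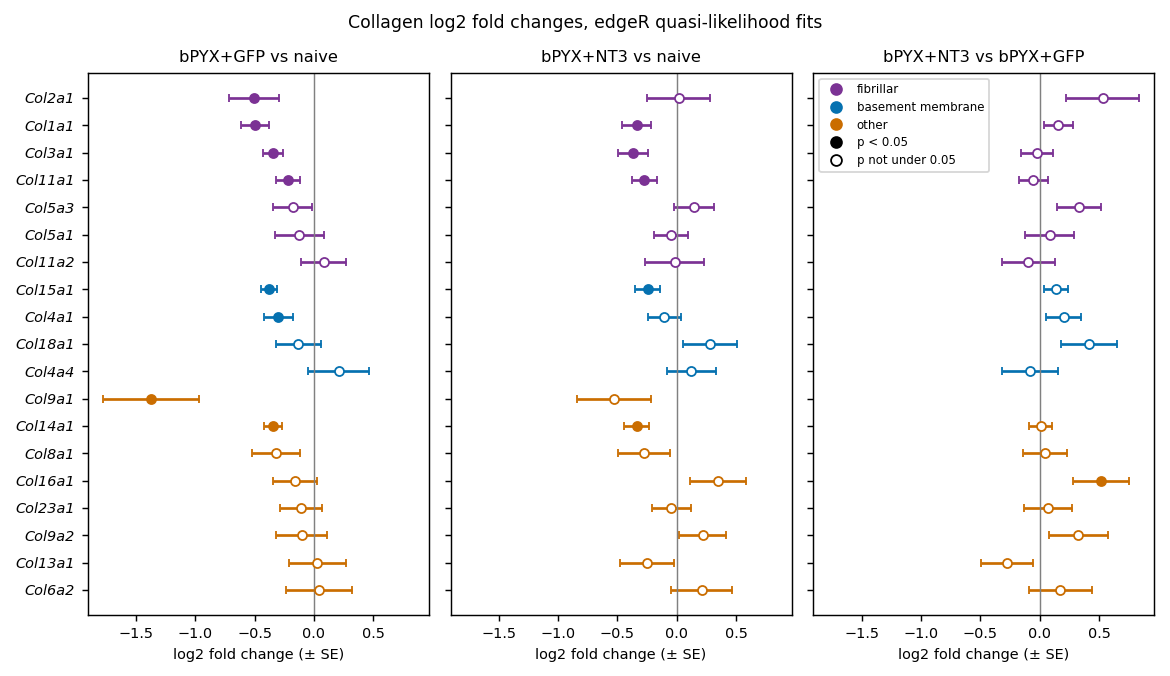
Log2 fold change (horizontal axis, 0 marked by the grey line) of each tested collagen (rows, grouped and coloured by type) in the 3 comparisons, with the SE as a bar. Filled points were called at an unadjusted p under 0.05, and they lie left of 0 in both comparisons with naïve rats (8 of 19 and 5 of 19) and right of it for Col16a1 between the injured groups. The 8 include Col9a1, whose direction the filter on low counts fixed.

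Rat 57 mattered for the size of this comparison. Without rats 11 and 57 (rat 11 is not in it), 10 of 18 collagens were lower at p under 0.05 where 5.17% of all genes were called, and the collagen median was -0.32. The members called in addition were Col5a1, Col5a3, Col9a2 and Col23a1, while Col9a1 could no longer be tested and Col11a1 was no longer called. Leaving out 1 rat at a time gave between 5 and 10 calls, with 5 without rat 43, rat 49 or rat 21. Col15a1, Col14a1, Col1a1 and Col3a1 kept p under 0.05 in 12 of 12 such fits, Col4a1 in 9 of 12, Col2a1 in 7 of 12 and Col11a1 in 5 of 12.

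Between bPYX+NT3 and naïve rats, 5 of 19 collagens were lower and 0 higher, where 6.01% of all 11693 genes were called, 2.92% lower and 3.09% higher. They were Col1a1, Col3a1 and Col11a1 of the 7 fibrillar genes, Col15a1 of the 4 basement membrane genes and Col14a1 of the 8 other genes. Their log2 fold changes were, among the fibrillar genes, for Col1a1 -0.34 (SE 0.118, p = 0.0125, exact permutation p = 0.0325), for Col3a1 -0.37 (SE 0.128, p = 0.012, exact permutation p = 0.0303) and for Col11a1 -0.27 (SE 0.104, p = 0.0202, exact permutation p = 0.026). For Col14a1 the value was -0.34 (SE 0.107, p = 0.00668, exact permutation p = 0.00649), and for Col15a1 -0.24 (SE 0.103, p = 0.0328, exact permutation p = 0.0498). All 6 bPYX+NT3 rats were below the naïve median for Col1a1 and Col14a1, and 5 of 6 for Col3a1, Col11a1 and Col15a1. No collagen had groups without overlap (0.145% of all genes did in the lower and 0.12% in the higher direction), and edgeR's quasi-likelihood test, its likelihood ratio test and DESeq2 each gave 0 adjusted p-values under 0.05 (smallest 0.607 in the first).

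This comparison uses the same naïve rats as the one before it, so values are set side by side and their likeness is not counted. Col4a1 was -0.10 (SE 0.138, exact permutation p = 0.468) in the bPYX+NT3 group and -0.30 in the bPYX+GFP group, and Col2a1 was 0.02 (SE 0.268, exact permutation p = 0.753) and -0.51 in the same order. Col9a1 was -0.53 (SE 0.311, exact permutation p = 0.225) in the bPYX+NT3 group. Without rat 11 the value of Col2a1 was -0.31. Above 0 but not called were Col16a1 at 0.35 (SE 0.238, exact permutation p = 0.288), Col18a1 at 0.28 (SE 0.226, exact permutation p = 0.39), Col6a2 at 0.21 (SE 0.255, exact permutation p = 0.431) and Col5a3 at 0.14 (SE 0.165, exact permutation p = 0.502). The collagen median was -0.05 against 0.0005 over all genes, and it moved to -0.20 without rat 11, with the same number of calls. Leaving out 1 rat at a time gave 4 or 5 calls, and Col15a1 was the member lost.

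Between bPYX+NT3 and bPYX+GFP rats, 1 of 18 collagens was called, Col16a1 (NM_001302967), a minor fibril-associated collagen, which was higher in bPYX+NT3 rats. Of all 11623 genes 1.73% were called, 1.08% higher and 0.654% lower, and the groups did not overlap for 0 of 18 collagens and 0.0602% of all genes, all higher. Col16a1 was at 171.5, 251.0 and 355.6 in the naïve group, 188.4, 206.3 and 332.1 in the bPYX+GFP group and 196.9, 304.3 and 517.1 in the bPYX+NT3 group. In the bPYX+NT3 group rats 2, 11 and 17 lay above each bPYX+GFP rat and rats 23, 39 and 40 among them. The log2 fold change was 0.52 (SE 0.235, p = 0.0449, exact permutation p = 0.0758) with an adjusted p of 0.851, and leaving out 1 rat kept the call in 4 of 12 fits. It was lost without any of rats 5, 15, 18, 21 and 52 of the bPYX+GFP group or rats 2, 11 and 17 of the bPYX+NT3 group.

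The genes lower against naïve rats were not called between the injured groups. On the log2 scale Col1a1 differed by 0.16 (SE 0.121, exact permutation p = 0.264), Col3a1 by -0.02 (SE 0.132, exact permutation p = 0.779) and Col11a1 by -0.05 (SE 0.121, exact permutation p = 0.662). Col15a1 differed by 0.14 (SE 0.10, exact permutation p = 0.275), Col4a1 by 0.20 (SE 0.146, exact permutation p = 0.262) and Col14a1 by 0.01 (SE 0.0928, exact permutation p = 0.978). Larger values with larger errors were those of Col2a1 at 0.53 (SE 0.306, exact permutation p = 0.193), Col18a1 at 0.42 (SE 0.235, exact permutation p = 0.151), Col5a3 at 0.33 (SE 0.188, exact permutation p = 0.132) and Col6a2 at 0.17 (SE 0.268, exact permutation p = 0.485). A p over the threshold does not show that the groups were alike for these genes. Without rat 57, 5 of 18 collagens were higher (Col2a1, Col5a3, Col9a2, Col16a1 and Col18a1) where 19.8% of all genes were called, and without rats 11 and 57 the number was 4 where 12.7% were called, while without rat 11 alone it was 0.

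**Figure D3:**
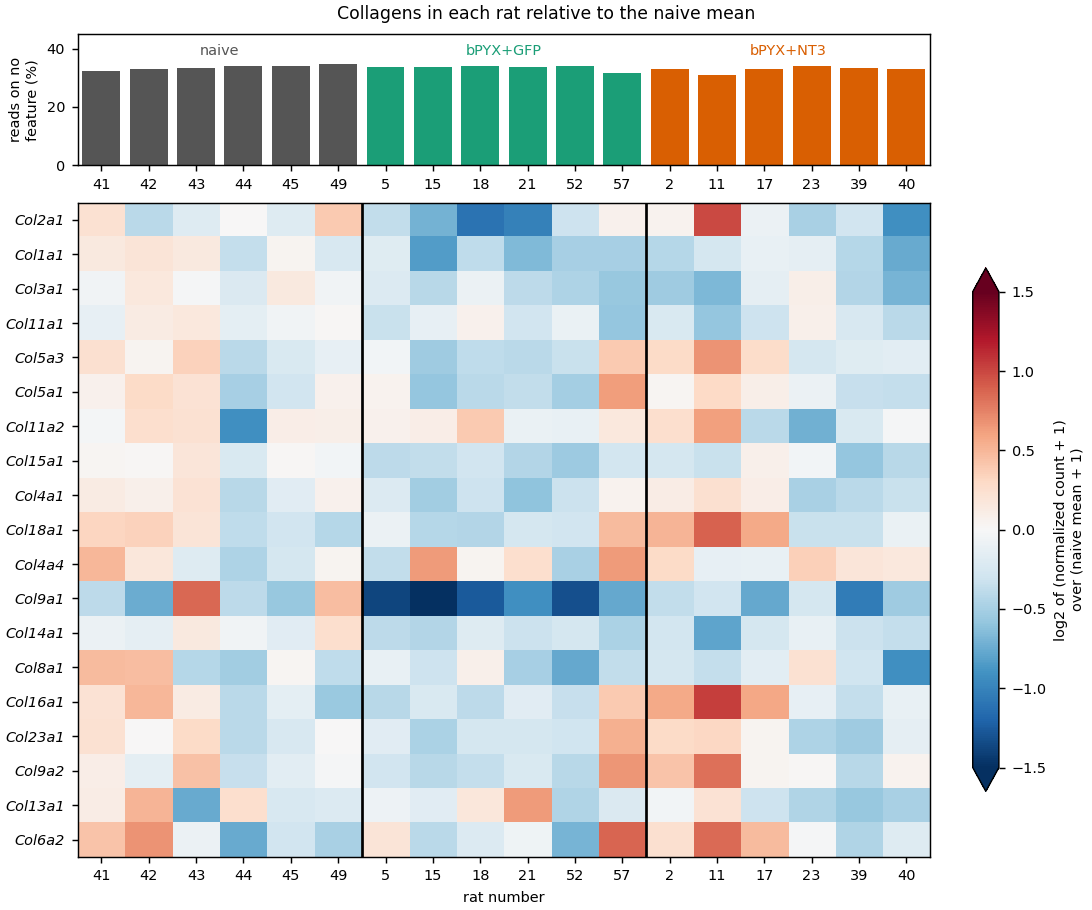
Colour gives the log2 ratio of each rat's normalized count (plus 1) to the naïve mean (plus 1) for the 19 tested collagens (rows) in 18 rats (columns, black lines between groups), with red above and blue below the naïve mean. The bars above give the share of read-pairs on no feature in percent, lowest in rats 11 and 57, whose columns are red for Col5a3, Col16a1, Col18a1 and Col6a2 and blue for Col3a1, Col11a1 and Col14a1.

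The collagens did not vary as 1 block from rat to rat. Rat 57 was the highest of its group for 11 of the 19 members and the lowest for 3 (Col3a1, Col11a1 and Col14a1), and over all genes it was the highest for 38.6% and the lowest for 37.7%. Rat 11 was likewise highest for 11 of 19 and lowest for 3 (Col4a4, Col11a1 and Col14a1), against 34.8% and 35.2% of all genes. Among naïve rats, rat 44 was the lowest for 13 of 19, including Col1a1, Col3a1, Col4a1 and Col15a1, against 21.7% of all genes, and rat 42 was the highest for 8. Within the naïve group the coefficient of variation was 8.95% for Col11a1, 9.16% for Col15a1, 9.60% for Col3a1 and 12.0% for Col14a1, against 27.4% for Col16a1 and 38.95% for Col6a2.

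The genes that make collagen were followed as lists, chosen by name with earlier results of these data known. Of 15 synthesis and folding genes tested, 3 were lower in the bPYX+GFP than in the naïve group and 0 higher. Of all genes, 2.52% were called lower and 0.733% higher in that comparison. Serpinh1, the collagen chaperone, was at 1045, 1216 and 1445 in the naïve group, 661.0, 904.0 and 1206 in the bPYX+GFP group and 737.3, 1028 and 1633 in the bPYX+NT3 group. All 6 bPYX+GFP rats were below the naïve median while the bPYX+NT3 rats spread beyond the naïve range on both sides, and the log2 fold changes against naïve rats were -0.43 (SE 0.12, p = 0.00296, exact permutation p = 0.00866) and -0.19 (SE 0.168, exact permutation p = 0.232). P4ha1, a catalytic subunit of prolyl 4-hydroxylase, was at 1660, 1900 and 2097 in the naïve group, 1169, 1484 and 1864 in the bPYX+GFP group and 1317, 1506 and 1832 in the bPYX+NT3 group. Each injured rat was below the naïve median, with log2 fold changes of -0.31 (SE 0.101, p = 0.00854, exact permutation p = 0.0195) and -0.28 (SE 0.0838, p = 0.00516, exact permutation p = 0.0108) in the injured groups. Sparc, a collagen-binding matricellular protein, changed by -0.16 (SE 0.0596, p = 0.0163, exact permutation p = 0.0152) and -0.13 (SE 0.0574, p = 0.0373, exact permutation p = 0.0368). In bPYX+NT3 rats P4ha3, another prolyl 4-hydroxylase subunit, was higher by 0.45 (SE 0.21, p = 0.0494, exact permutation p = 0.0238). Against naïve rats 2 of 15 were thus lower and 1 higher, beside 2.92% and 3.09% of all genes. Between the injured groups 0 of 15 were called, beside 1.73% of all genes. The list's median log2 fold change was -0.06, 0.04 and 0.10 in the 3 comparisons in the order above.

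The lists for later steps held fewer calls. Of all genes, 3.25% were called in bPYX+GFP against naïve rats, 6.01% in bPYX+NT3 against naïve rats and 1.73% between the injured groups. Lists of 5 to 10 genes are too short to tell a count of 0 or 1 from these shares. Of 7 genes for propeptide cleavage and cross-linking, Loxl4, a lysyl oxidase, changed by -0.51 (SE 0.179, p = 0.0129, exact permutation p = 0.00433) in bPYX+GFP against naïve rats and by 0.72 (SE 0.211, p = 0.00452, exact permutation p = 0.0108) in bPYX+NT3 against bPYX+GFP rats, at means of 25.4, 17.7 and 29.4 normalized counts in naïve, bPYX+GFP and bPYX+NT3 rats. Of 5 collagen receptors, Itga10, the integrin alpha 10 chain, was higher in bPYX+NT3 than in naïve rats (0.52, SE 0.219, p = 0.0334, exact permutation p = 0.0563). Of 10 genes for degradation, Mmp14, a membrane-bound collagenase, was lower in bPYX+GFP than in naïve rats (-0.25, SE 0.111, p = 0.0425, exact permutation p = 0.0758). Of 5 small proteoglycans that coat fibrils, Lum was lower in bPYX+GFP rats (-0.23, SE 0.0981, p = 0.0316, exact permutation p = 0.0693) and Dcn in bPYX+NT3 rats (-0.28, SE 0.13, p = 0.0484, exact permutation p = 0.0693), both against naïve rats. Of 9 regulators, among them the 3 TGF-beta genes Tgfb1, Tgfb2 and Tgfb3, which drive collagen transcription, 0 were called in each of the 3 comparisons of edgeR's quasi-likelihood test. With 9 genes this count cannot be told from the shares of all genes, and it does not show that the regulators were unchanged.

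**Figure D4:**
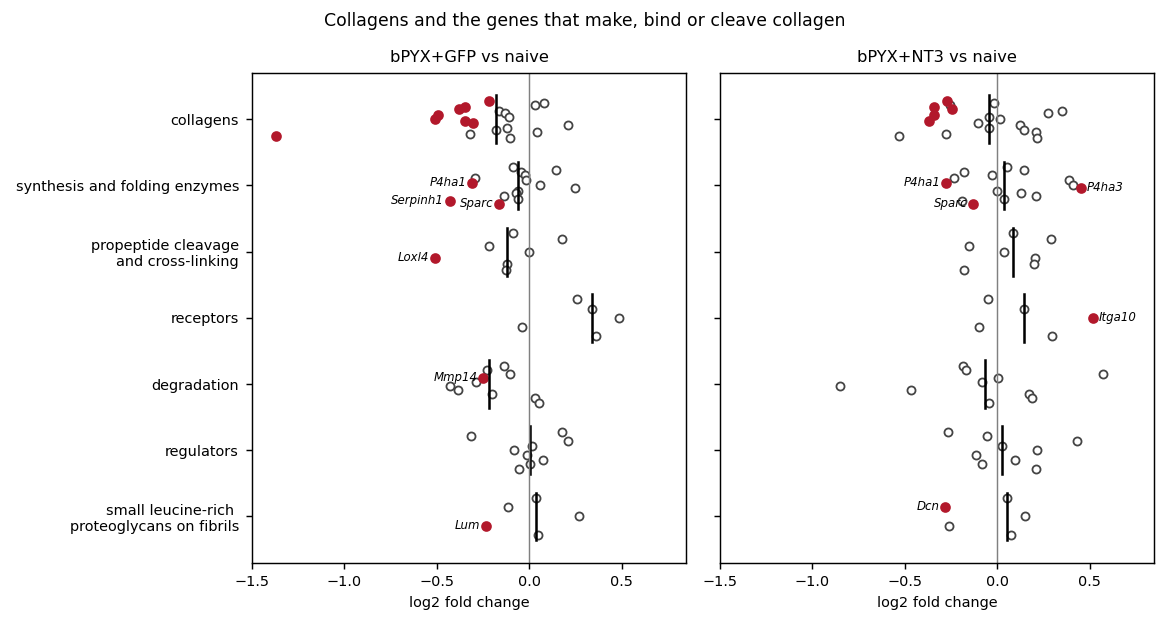
Log2 fold change (horizontal axis) of each tested collagen and of each tested gene of the pathway lists (rows) in bPYX+GFP and bPYX+NT3 rats against the same naïve rats. Red points have an unadjusted p under 0.05 and are named outside the collagens, and the black line is the median of a list. The red collagen points lie left of 0 in both panels, and 0 of 9 regulators are red in either. Of all genes, 3.25% were called in the first panel's comparison and 6.01% in the second's.

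Markers of cells that make collagen moved in part with these results and in part the other way. Called markers stand beside 3.25% of all genes called in bPYX+GFP against naïve rats. That share was 6.01% in bPYX+NT3 against naïve rats and 1.73% between the injured groups. Below 0 were 43.9% of all genes in bPYX+GFP against naïve rats and 49.9% in bPYX+NT3 against naïve rats. In bPYX+GFP rats 8 of 8 Schwann cell markers had a log2 fold change below 0 against naïve rats, with Pmp22 (-0.31, SE 0.106, p = 0.0119, exact permutation p = 0.0238) and Egr2 (-0.30, SE 0.119, p = 0.0237, exact permutation p = 0.052) called. Summed over the list, their level ran from 46789 to 64871 in naïve rats, from 41589 to 52564 in bPYX+GFP rats and from 46188 to 51841 in bPYX+NT3 rats, where 6 of 8 were below 0. There Pmp22 (-0.31, SE 0.0905, p = 0.00402, exact permutation p = 0.00866) was called lower. Of 6 fibroblast markers 4 were below 0 in each injured group, with Lum and Dcn the ones called as given above, and the summed level ran from 19738 to 27057, from 18881 to 24883 and from 14346 to 26241 in the same order. Of 6 cartilage and bone markers tested, Cnmd, the gene of chondromodulin, was lower in the bPYX+GFP (-0.36, SE 0.103, p = 0.00396, exact permutation p = 0.0108) and in the bPYX+NT3 group (-0.31, SE 0.0937, p = 0.005, exact permutation p = 0.00649) than in the naïve group. Acan was higher in bPYX+NT3 than in naïve rats (0.56, SE 0.229, p = 0.0278, exact permutation p = 0.0714). Matn1, a defining cartilage marker named after its values were seen, had too few reads to be tested. Its median was 0 in each group, and its highest values were 0, 1.269 and 1.965 in naïve, bPYX+GFP and bPYX+NT3 rats. The list's summed level ran from 1967 to 2556, from 1640 to 1980 and from 1703 to 1986. Most of that sum was Cnmd (means 1488, 1161 and 1199) and Hapln1 (means 537, 508 and 508), so it mainly repeats the value of Cnmd.

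Between the bPYX+GFP and naïve groups 5 of 6 smooth muscle and pericyte markers (median log2 fold change -0.29), 2 of 3 satellite glia markers (median -0.29) and 5 of 5 macrophage markers (median -0.07) were below 0. Fewer were below 0 among endothelial (2 of 7, median 0.16), meningeal (0 of 3, median 0.23) and neuron markers (0 of 10, median 0.11). It was 5 of 6 cartilage and bone (median -0.11), 1 of 2 perineurial (median -0.02) and 0 of 2 adipocyte markers (median 0.46). Over all genes 43.9% were below 0 in this comparison. The lists are short, so these sign counts are not read as shifts of a cell type. Calls below stand beside the shares of all genes given above. None of 5 macrophage, 2 perineurial, 3 meningeal, 3 satellite glia and 6 smooth muscle and pericyte markers was called against naïve rats in edgeR's quasi-likelihood test, while Foxc1 of the meningeal list was lower in bPYX+NT3 than in bPYX+GFP rats (-0.36, SE 0.167, p = 0.0488, exact permutation p = 0.0693). Of 7 endothelial markers Tie1 was higher in bPYX+GFP (0.30, SE 0.135, p = 0.0406, exact permutation p = 0.0541) and Flt1 in bPYX+NT3 rats (0.28, SE 0.119, p = 0.0326, exact permutation p = 0.0476) against naïve rats. Beside the call of Col16a1, the smooth muscle marker Acta2 was higher in bPYX+NT3 than in bPYX+GFP rats (0.56, SE 0.262, p = 0.0499, exact permutation p = 0.108), as were the satellite glia marker Kcnj10 (0.42, SE 0.153, p = 0.0154, exact permutation p = 0.026) and the cartilage gene Comp (0.82, SE 0.374, p = 0.0465, exact permutation p = 0.052). The adipocyte gene Adipoq was lower in bPYX+NT3 rats than in bPYX+GFP rats (-2.11, SE 0.729, p = 0.012, exact permutation p = 0.13) and naïve rats (-1.85, SE 0.735, p = 0.0248, exact permutation p = 0.214), and Fabp4 than in bPYX+GFP rats (-2.05, SE 0.794, p = 0.022, exact permutation p = 0.141). Skeletal muscle markers summed to between 8.885 and 116.9 normalized counts in any rat. The part that the amount of any of these cells had in the collagen results was not tested.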

How the data were processed

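Paired-end reads of 50 bp from poly(A) RNA were aligned by the authors (TopHat2, Rnor_6.0), duplicates were reduced to the best read (Picard) and HTSeq gave the deposited counts per RefSeq identifier, which are not normalized. Read-pairs mapped to several locations (19.0% to 22.3% per rat) or ambiguous between genes (2.79% to 3.41%) were not counted, and whether counting used strand is not given in the sources used here. Reads on no gene (a no-feature share of 30.8% to 34.6%) stayed out of library sizes and tests. Each pair of groups was fitted in R 4.3.3 with edgeR 4.0.16 (TMM, glmQLFit, glmQLFTest) over genes for which 6 or more of the 12 rats had over 10 reads, with Benjamini-Hochberg adjustment over all genes. SE is the absolute log2 fold change over the square root of F. Exact two-sided permutation tests used log2 CPM (prior count 2). DESeq2 1.42.0 and the other alternatives are given in the closing section, and fits were tested on simulated data. The members and lists were chosen with earlier results of these data known. Named in full are collagens with an unadjusted p under 0.05 in a comparison and the 3 of highest mean count per type. The rats are separate animals, and small RNAs were not analysed here. The results of some marker genes are not reported here.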

Additional observations from a re-analysis of the deposited data

Results flagged for a closer look

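Among 36 groups of 6 rats of the 12 collagens described in full, 3 held a rat whose gap to its nearest neighbour was, as a share of the group's range, over Dixon's critical value, where chance gives about 1 in 20 groups. Col2a1 was 184.9 normalized counts in rat 11 of the bPYX+NT3 group, with the next rat at 96.2. Col16a1 was 332.1 in rat 57 of the bPYX+GFP group, with the next rat at 223.9. Col18a1 was 338.3 in rat 57, with the next rat at 229.7. These are the 2 rats with the lowest no-feature share, and the part of that share in their values was not tested.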

How the results depend on the processing

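Between bPYX+GFP and naïve rats the number of collagens called stayed between 6 and 11 under the likelihood ratio test, DESeq2, both other scalings, the other filters, 1 fit over the 3 groups, robust estimation, the no-feature covariate and the omission of rats 11 and 57, and between bPYX+NT3 and naïve rats it was 4 or 5 under the same settings. The 11 came with the no-feature covariate, where 7.31% of all genes were called, and the share over all genes was 2.95% to 5.17% under the others of the first comparison and 3.14% to 7.00% in the second. Leaving out 1 rat at a time gave 5 to 10, 4 to 5 and, between the injured groups, 0 to 5 calls, with 2.35% to 5.17%, 3.14% to 11.9% and 0.822% to 19.8% of all genes called. Between the injured groups the count was 2 with no filter, with the filter over 18 rats and in 1 fit over 3 groups, where Col9a1 was tested as well, and 4 without rats 11 and 57 (chosen after seeing the data), where 12.7% of all genes were called. A replicate block used the number of each rat's sample within its heading group (also chosen after seeing the data). With this block the counts were 8, 7 (5 lower, with Col16a1 and Col18a1 higher, where 25.3% of all genes were called) and 0. The labels do not say that same-numbered rats are pairs. The correlation of same-numbered rats ran from -0.402 to 0.534. Of 18 pairs 10 were over 0.1, and 5 of 18 rats correlated best with their own number. These values do not settle whether the numbers pair the rats.

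Grouped by the recorded titles the counts were 0, 1 and 0, where 1.49%, 2.85% and 2.26% of all genes were called. The log2 fold changes between bPYX+GFP and naïve rats then turned to 0.029 for Col15a1, 0.28 for Col9a1, 0.16 for Col14a1, 0.11 for Col11a1, 0.13 for Col3a1 and 0.11 for Col1a1. Between bPYX+NT3 and naïve rats they turned to 0.12 for Col15a1, 0.31 for Col14a1, 0.14 for Col11a1, 0.15 for Col3a1 and 0.13 for Col1a1, and between the injured groups to -0.13 for Col16a1. That grouping moves 17 of 18 rats to another group, whereas the heading groups gave the paper's own fold changes for Loxl4 and Adipoq. A prior count of 0.5 in the exact permutation tests moved no collagen p across 0.05, while that of Comp between the injured groups went from 0.052 to 0.0498. With the type IV chains alone as basement membrane collagens, 1 of 2 was called between bPYX+GFP and naïve rats and 0 of 2 between bPYX+NT3 and naïve rats. Genes near 10 reads, such as Col4a4 and Col9a1, are limited by counting error.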
